A study of Mus musculus with 55 samples.

Results

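The respiratory chain subunit genes are 54 nuclear genes that encode structural proteins of complexes I, III and IV of the mitochondrial inner membrane. They were chosen by symbol. The choice took every Ndufa, Ndufb, Ndufc, Ndufs or Ndufv gene with a number, every Uqcr gene, and 10 Cox genes of the widely expressed isoforms. The rule uses no measured value, but earlier results of these data were known when it was set. The rule gave 36 genes of complex I, 8 of complex III and 10 of complex IV, out of 34490 gene symbols found in the count tables of both sequencing batches. All were measured by RNA-seq of whole liver from C57BL/6 mice carrying floxed alleles of Rnf43 and Znrf3, which encode membrane E3 ubiquitin ligases that remove Wnt receptors from the cell surface. In R&Zdel mice both genes were deleted in adult hepatocytes, either by tamoxifen through Alb1-CreERT2 or by an AAV8 virus that expresses Cre from the TBG promoter. Control R&Zflox mice carried the same floxed alleles and received sunflower oil or a null virus. In the tamoxifen mice the drug went to mutants alone, so tamoxifen and deletion cannot be told apart there.

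Livers of undamaged mice were collected at the times labelled 1M (virus, 4 R&Zdel and 4 R&Zflox libraries, both sexes), 3M (2 and 5 libraries) and 7M (tamoxifen, 5 and 5 libraries). Of the 3M mice, 1 R&Zdel and 2 R&Zflox were tamoxifen mice of batch 1, and the others virus mice of batch 2. Chronic damage (CD) mice were males of the tamoxifen line that received the liver toxin carbon tetrachloride (CCl4) over 6 weeks. The labels mark the R&Zflox CD mice as chronically damaged too, and are followed here, although the study's methods give unrecombined controls of its CCl4 models vehicle alone. The CD mice were sampled 4 days (2 R&Zdel and 2 R&Zflox), 50 days (2 and 1) or 170 days (2 and 2) after the last dose. Partial hepatectomy (PHx) mice of the virus line had part of the liver removed and were sampled 7 or 21 days later, with 3 libraries of each genotype at each time. Outside 1M, all grouped mice were male except R&Zdel replicate 4 at 3M, R&Zflox replicate 5 at 7M and R&Zdel replicate 3 at 21 days after PHx. Batch 1 holds the CD mice and some 3M and 7M mice, and batch 2 holds the rest. Levels of a gene were not compared across the batches.

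Complex I passes electrons from NADH to ubiquinone, complex III passes them on to cytochrome c, and complex IV hands them to oxygen. Each pumps or moves protons across the inner membrane, and the gradient drives the ATP synthase. The catalytic core of each complex is partly encoded by mitochondrial DNA, so a working complex needs products of both genomes. Hepatocytes are rich in mitochondria and depend on this chain for gluconeogenesis, fat oxidation and urea synthesis.

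The 48 libraries with a group held 11721687 to 32168223 counts (median 22488266), of which the 54 genes took 1.09% to 2.15%, or 183530 to 609724 counts per library. No 2 libraries held identical values. The titles of R&Zdel replicate 4 at 3M and R&Zflox replicate 5 at 7M, both of batch 1, go against their other labels, by which they were grouped. Markers of hepatocytes (Alb, Apoa1, Ttr, Asgr1, Tat) were detected in every group, in which they are the labelled main cell type. The gene-level counts of Rnf43 and Znrf3 include exons outside the deleted part, so they do not check the deletion. Their summed level was 41.4 to 43.0 CPM in R&Zdel and 9.66 to 15.8 CPM in R&Zflox at CD 4d, and the fitted fold change of each was above 0 in all 8 genotype comparisons. In batch 1, reads that map to several places were not counted, so subunits with processed pseudogenes may be undercounted, and 3 of the 54 genes (Ndufa7, Ndufs3 and Uqcrc1) are also annotated on alternate contigs. In whole liver, fewer cells of a type and less RNA per cell cannot be told apart. The labels number the samples of a group without stating their origin, so p-values measure the spread between these samples.

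The 54 transcripts spanned a wide range of levels. Levels were taken per kilobase of exon, which allows for transcript length. Reads that map to several places were not counted, so low values may be undercounts. The medians over the batch 1 libraries ran from 27.6 CPM per kilobase for Cox7c to 2541 CPM per kilobase for Cox4i1, both of complex IV. In complex I the highest was Ndufa4 (1677 CPM per kilobase) and the lowest Ndufs1 (29.7 CPM per kilobase), a large core subunit with a long transcript. In complex III the highest was Uqcr11 (1037 CPM per kilobase), a small accessory subunit, and the lowest Uqcrc2 (100.05 CPM per kilobase). Percentiles were taken among the genes above 1 CPM in at least 3 libraries of a batch. By CPM the 54 lay at the 55.0 to 99.5 percentile in batch 1, while in batch 2 Cox7c was at the 47.2 percentile.

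At 4 days after CCl4, subunit transcripts of all 3 complexes stood lower in R&Zdel livers, and this was the time at which the most members passed the test. Of the 54 genes, 23 fell at an adjusted p under 0.1 (14 of complex I, 5 of complex III and 4 of complex IV), and none rose. Every one of the 54 fitted log2 fold changes was below 0, from -1.23 to -0.02, with a median of -0.58. Among all 11342 genes tested, 13.1% fell and 14.5% rose by this rule, the median was 0.05 and 46.7% were below 0. Of the members, 4 also passed the threshold of a 1 log2 unit change, against 4.96% of all genes in that direction. By complex the median log2 fold change was -0.48 for complex I, -0.74 for complex III and -0.63 for complex IV. The fold changes are from edgeR's quasi-likelihood test with Benjamini-Hochberg adjustment over all genes, on counts scaled by TMM. In the 7 other genotype comparisons edgeR called none of the 54, while DESeq2 called 1 lower at 3M, 3 lower at CD 50d and none in the rest.

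**Figure D1:**
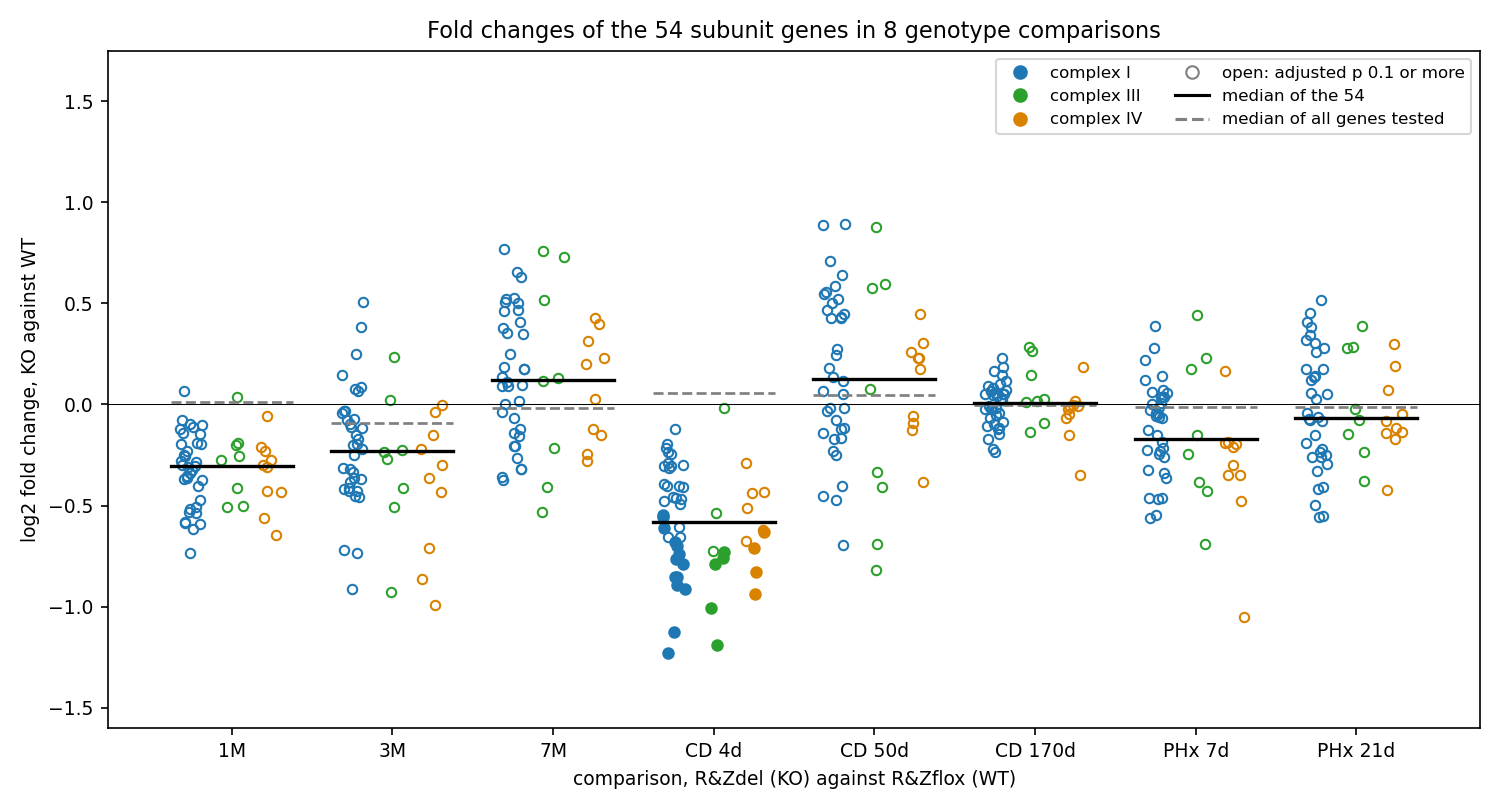
Log2 fold change (vertical axis) of each of the 54 subunit genes, R&Zdel (KO) against R&Zflox (WT), in 8 comparisons (horizontal axis). Filled points have an adjusted p under 0.1, solid lines mark the median of the 54 genes and dashed lines that of all genes tested. Filled points appear at CD 4d alone, where the solid line lies at -0.58.

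The per-library sums on the TMM scale show the same order. On the scale of TMM-scaled CPM, the counts of a gene per 1e6 counts of the library, the 54 genes summed to 13053.5 and 10160.8 in the 2 R&Zdel libraries at CD 4d. In the 2 R&Zflox libraries they summed to 21453.8 and 16957.3, so the groups did not overlap. As log2 of the sum, the R&Zdel libraries stood at 13.67 and 13.31 and the R&Zflox libraries at 14.39 and 14.05, and the R&Zdel values were below those of every other grouped batch 1 library. With total counts as the scaling the R&Zdel libraries stood at 14.10 and 13.91 and the R&Zflox libraries at 14.33 and 14.04, so the genotypes overlapped, also in complexes I and IV but not in III, and the R&Zdel libraries were not the lowest of batch 1. Within each genotype replicate 1 was higher than replicate 2 for each complex. In 43 of the 54 genes both R&Zdel libraries were below both R&Zflox libraries, against 32.5% of all genes, and in none were both above.

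**Figure D2:**
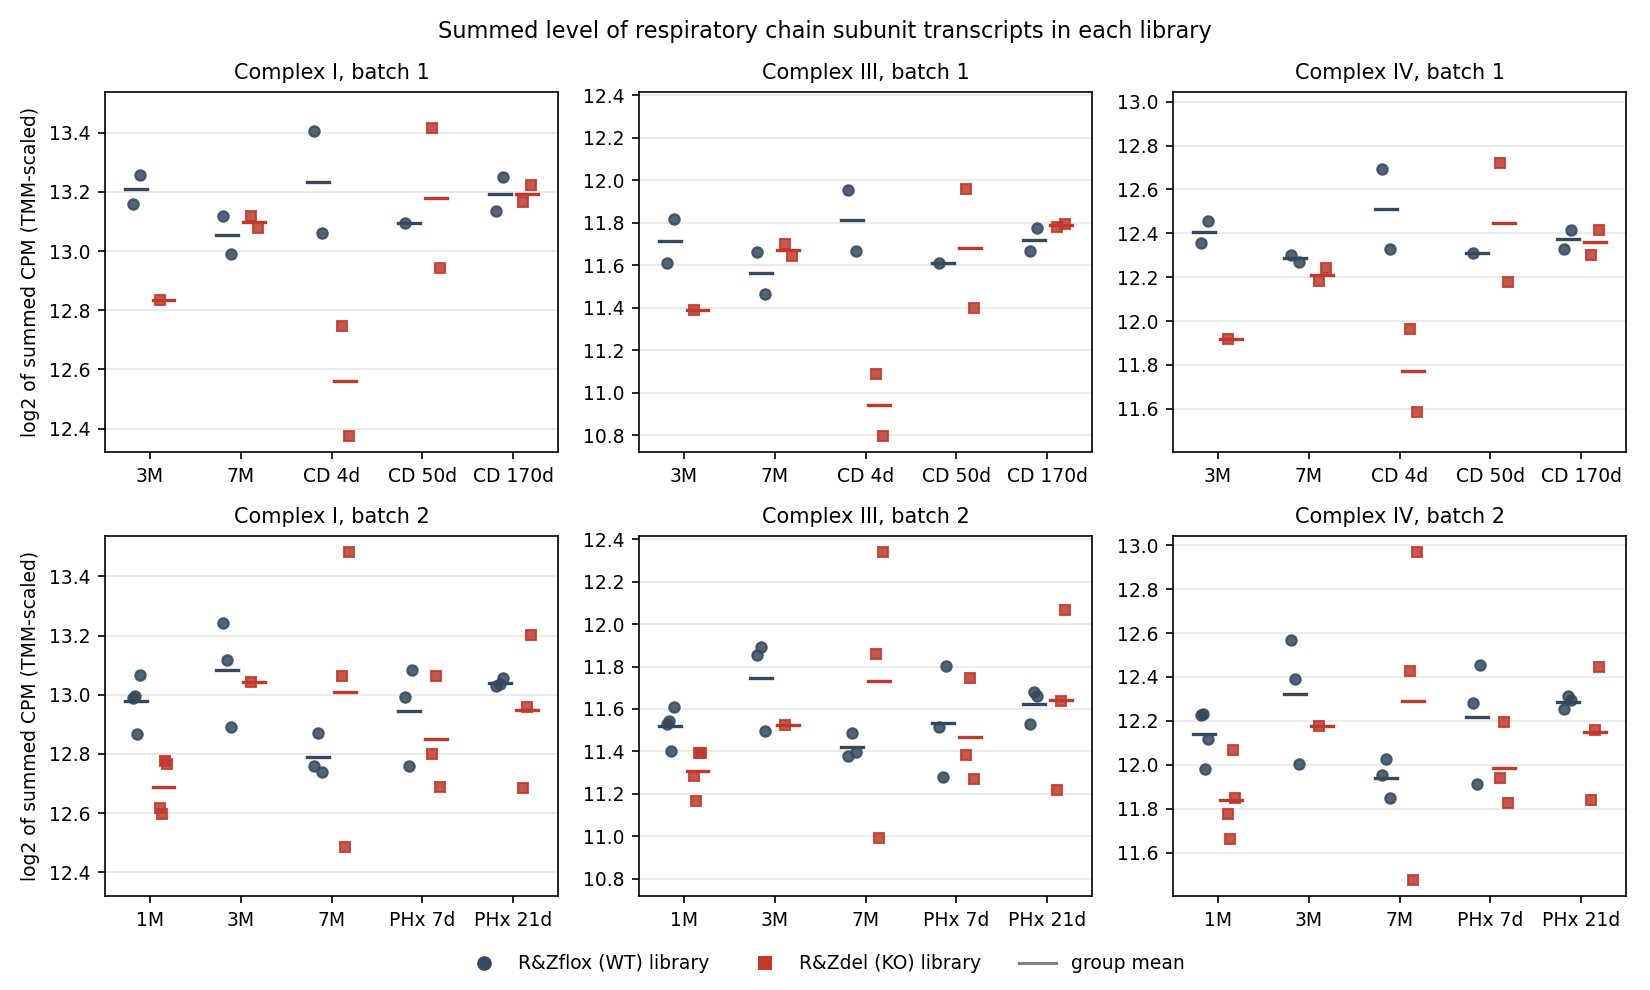
Log2 of the summed TMM-scaled CPM of the subunit genes of complexes I, III and IV (vertical axes) in each library, by time and treatment (horizontal axes), batch 1 in the top row and batch 2 in the bottom row, with circles for R&Zflox libraries, squares for R&Zdel libraries and lines for group means. On this TMM scale both R&Zdel libraries at CD 4d are the lowest of batch 1 in complexes I and III (12.75 and 12.38 for I), in complex IV the R&Zdel library at 3M lies between them, and the 3 R&Zdel libraries at 7M of batch 2 have the widest spread.

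In complex I, Ndufb9, an accessory subunit of the membrane arm (mm10 chr15:58933801-58939516), measured 388 and 311 CPM in the R&Zdel libraries at CD 4d and 978 and 722 CPM in R&Zflox. The genotypes did not overlap, and the log2 fold change was -1.23 (SE 0.25, adjusted p = 0.0133). Of the 7 core subunits, which carry the flavin and iron-sulphur clusters, 4 fell, and of the 29 accessory subunits 10 fell. Ndufs1, a core subunit that carries iron-sulphur clusters, measured 57.5 and 55.9 CPM against 101 and 111 CPM and changed by -0.85 (SE 0.20, adjusted p = 0.0211). Ndufv1, which binds NADH, changed by -0.79 (SE 0.23, adjusted p = 0.0454). Ndufs7, which carries the last cluster before ubiquinone, did not pass the test, at -0.66 (SE 0.27, adjusted p = 0.12). Among accessory subunits Ndufa6, Ndufb5, Ndufa4, Ndufa1, Ndufb10, Ndufb11, Ndufa9, Ndufb8 and Ndufa12 each fell, by 0.91 to 0.54 on the log2 scale. Ndufa4 is counted here with complex I by its name, although the protein is now assigned to complex IV.

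In complex III, Uqcrfs1, the Rieske iron-sulphur protein (chr13:30540312-30545316), measured 302 and 265 CPM in R&Zdel and 676 and 668 CPM in R&Zflox. The genotypes did not overlap and each was compact. It changed by -1.19 (SE 0.20, adjusted p = 0.0060). Uqcrh, the hinge protein that assists electron transfer to cytochrome c (chr4:116066965-116075070), measured 199 and 165 CPM against 438 and 319.6 CPM, again without overlap, and changed by -1.01 (SE 0.23, adjusted p = 0.0190). The core proteins Uqcrc1 and Uqcrc2, which hold the complex on its matrix side, changed by -0.79 (SE 0.23) and -0.76 (SE 0.21), and Uqcr11 by -0.73 (SE 0.27), all past the test. Uqcrb, a small subunit next to the ubiquinone site, was the exception, with 78.1 and 58.5 CPM against 75.9 and 67.8 CPM, which gave -0.02 on the log2 scale (SE 0.20, adjusted p = 0.957). Its groups overlapped.

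In complex IV, Cox5a, a nuclear subunit of the matrix side (chr9:57517328-57532427), measured 290.3 and 233 CPM in R&Zdel against 578 and 463 CPM in R&Zflox. It changed by -0.94 (SE 0.22, adjusted p = 0.0228). Cox4i1, the subunit with an ATP-binding regulatory site, had the highest level per kilobase of the 54 in batch 1 (median 2541 CPM per kilobase), with 1497 and 1154 CPM against 2833 and 2051 CPM. The groups did not overlap, and the change of -0.83 (SE 0.30) had an adjusted p of 0.0849. The small membrane subunits Cox8a and Cox6c changed by -0.71 (SE 0.20) and -0.63 (SE 0.22), both past the test. Cox5b, a zinc-binding subunit, measured 107 and 73.4 CPM against 142 and 111 CPM and did not pass, at -0.43 (SE 0.24, adjusted p = 0.23).

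**Figure D3:**
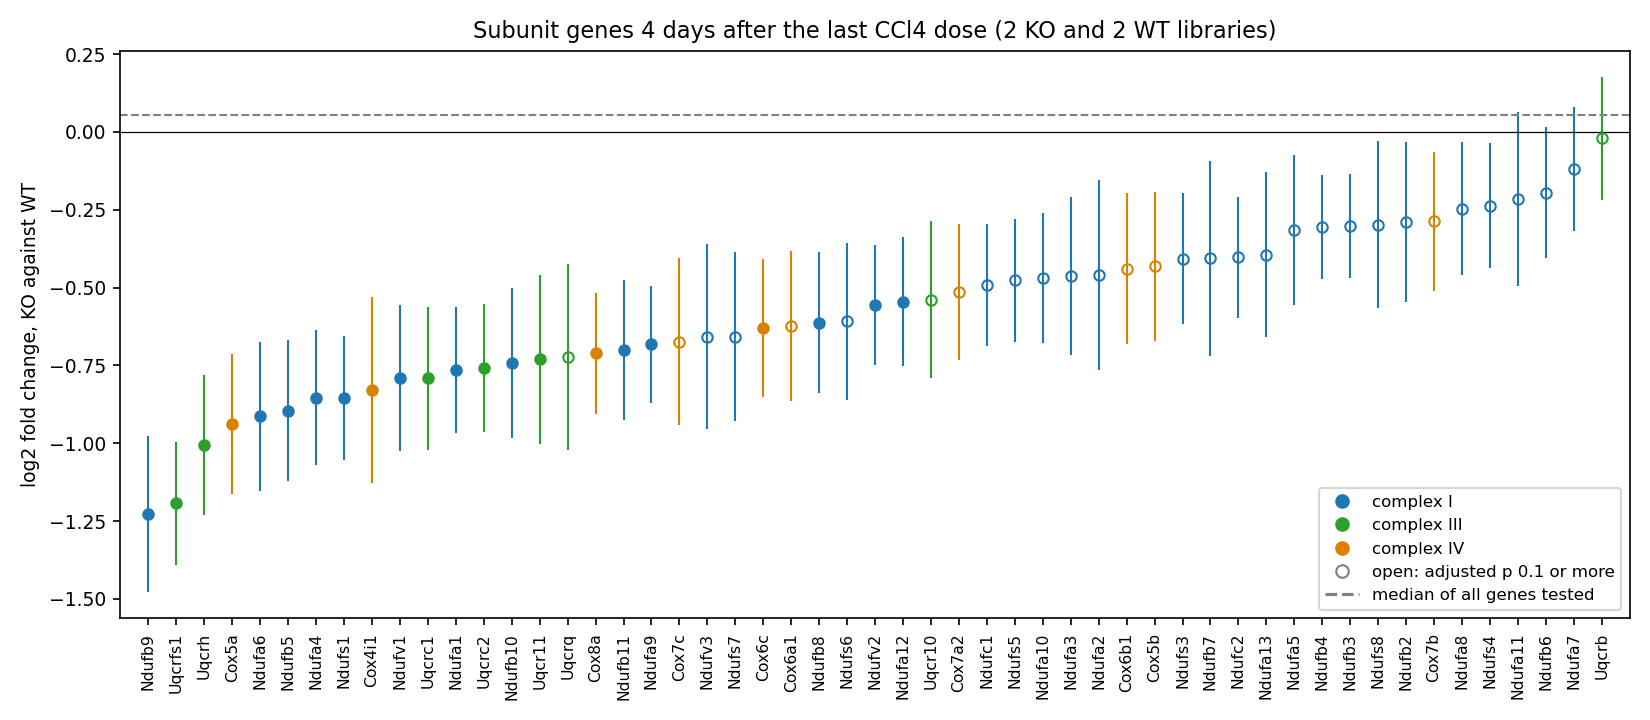
Log2 fold change at CD 4d, R&Zdel against R&Zflox (vertical axis), of 53 of the subunit genes in rising order (horizontal axis), with bars for 1 SE and filled points for an adjusted p under 0.1. All points lie below 0, from Ndufb9 at -1.23 to Uqcrb at -0.02, and the dashed line marks the median of all genes at 0.05.

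The size of this difference depended on how the libraries were scaled. The TMM factors of the R&Zdel libraries at CD 4d were 1.34 and 1.51, against 0.959 and 0.994 in R&Zflox. When total counts were used in place of TMM, a setting chosen after seeing the data, the median of all genes moved from 0.05 to 0.55 and that of the members from -0.58 to -0.09. Then 32 of the 54 genes were below 0 and 5 fell at an adjusted p under 0.1, while 3.98% of all genes fell and 38.6% rose. The members' median minus that of all genes was -0.64 under either scaling. A change of scaling moves all genes by nearly the same amount, so this difference could hardly change and is no check of the result. When single libraries were left out, 2 of the 23 were still called without R&Zdel replicate 2, 3 without R&Zflox replicate 1, 12 without R&Zflox replicate 2 and 16 without R&Zdel replicate 1 (20 members in all), with all 23 genes below 0 each time.

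Markers of other cell types differed between the same libraries. Cholangiocyte markers, from the cells that line bile ducts (Krt7, Krt19, Epcam, Sox9, Spp1), rose in 5 of 5, with a summed level of 2634 to 4178 CPM in R&Zdel against 91.3 to 159 CPM in R&Zflox at CD 4d. Of the stellate and fibroblast markers 3 of 5 rose, the collagen genes Col1a1, Col1a2 and Col3a1, at 290.4 to 726 CPM in sum against 194 to 294 CPM. The hepatocyte markers were all below 0, with 1 of 5 past the test, at 47431 to 65403 CPM in sum against 94198 to 94218 CPM and a median log2 fold change of -0.76. Endothelial markers fell in 3 of 5, at 64.5 to 122 CPM in sum against 213 to 219 CPM. Of the macrophage markers none was called, at 332 to 614 CPM against 508 to 1061 CPM. No marker of leukocytes (2 of 5 tested) or pancreas (2 of 5 tested) was called, and of the erythroid markers 1 of 5 fell. None of the 5 markers of bile duct cells, hepatocytes, stellate cells, endothelium or macrophages was at 0 throughout. The part of these cell types in the change of the subunit genes was not tested.

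Succinate dehydrogenase, or complex II, which feeds ubiquinone from succinate, fell in 3 of its 4 genes, with a median of -0.77. Its sum was 717 to 841 CPM in R&Zdel and 1345 to 1467 CPM in R&Zflox at CD 4d, with no overlap. Of the ATP synthase genes 10 of 16 fell (median -0.65), among them Atp5b, a catalytic subunit, at -0.98 (SE 0.25) and Atp5l at -1.15 (SE 0.32). The related genes Cyc1 (cytochrome c1), Cox7a2l and Ndufab1 fell as well, while Cycs, cytochrome c, was at -0.23 (SE 0.32, adjusted p = 0.64). Assembly factors, which build the complexes without staying in them, fell in 7 of 34 (median -0.33), with Foxred1 at -0.96 (SE 0.22) and Tmem126b at -0.87 (SE 0.18). Mitochondrial ribosomal protein genes fell in 23 of 75 (median -0.42). Cytosolic ribosomal protein genes, another set of short transcripts, had 1 that fell and 2 that rose of 73, with a median of 0.06. Genes with a summed exon length up to 1000 bases had a median of -0.17 over 606 genes, and the subunit genes are short, at a median of 779.5 bases against 1840 for all genes.

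For transcripts from mitochondrial DNA no difference was called. Of the 13 subunit genes of that genome 8 passed the filter in batch 1, none was called at CD 4d, 4 were above and 4 below 0, and their median log2 fold change was -0.01. They summed to 15322 and 18018 CPM in R&Zdel and to 14432 and 17565 CPM in R&Zflox, so the groups overlapped under TMM. As a share of total counts, the 13 genes took 2.32% and 2.42% in R&Zdel and 1.43% and 1.68% in R&Zflox. On that scale both R&Zdel libraries stood above both R&Zflox libraries. Among 14 tested regulators of mitochondrial biogenesis, such as Ppargc1a, Nrf1, Gabpa, Esrra and Tfam, none was called, with a median of -0.05. The test has 2 libraries per genotype, and Tfam stood at -0.49 (SE 0.22, adjusted p = 0.155) and Nrf1 at 0.25 (SE 0.19, adjusted p = 0.37). In the batch 2 tables the mitochondrial genes are listed at 0 in every library, so no value of theirs is given there.

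**Figure D4:**
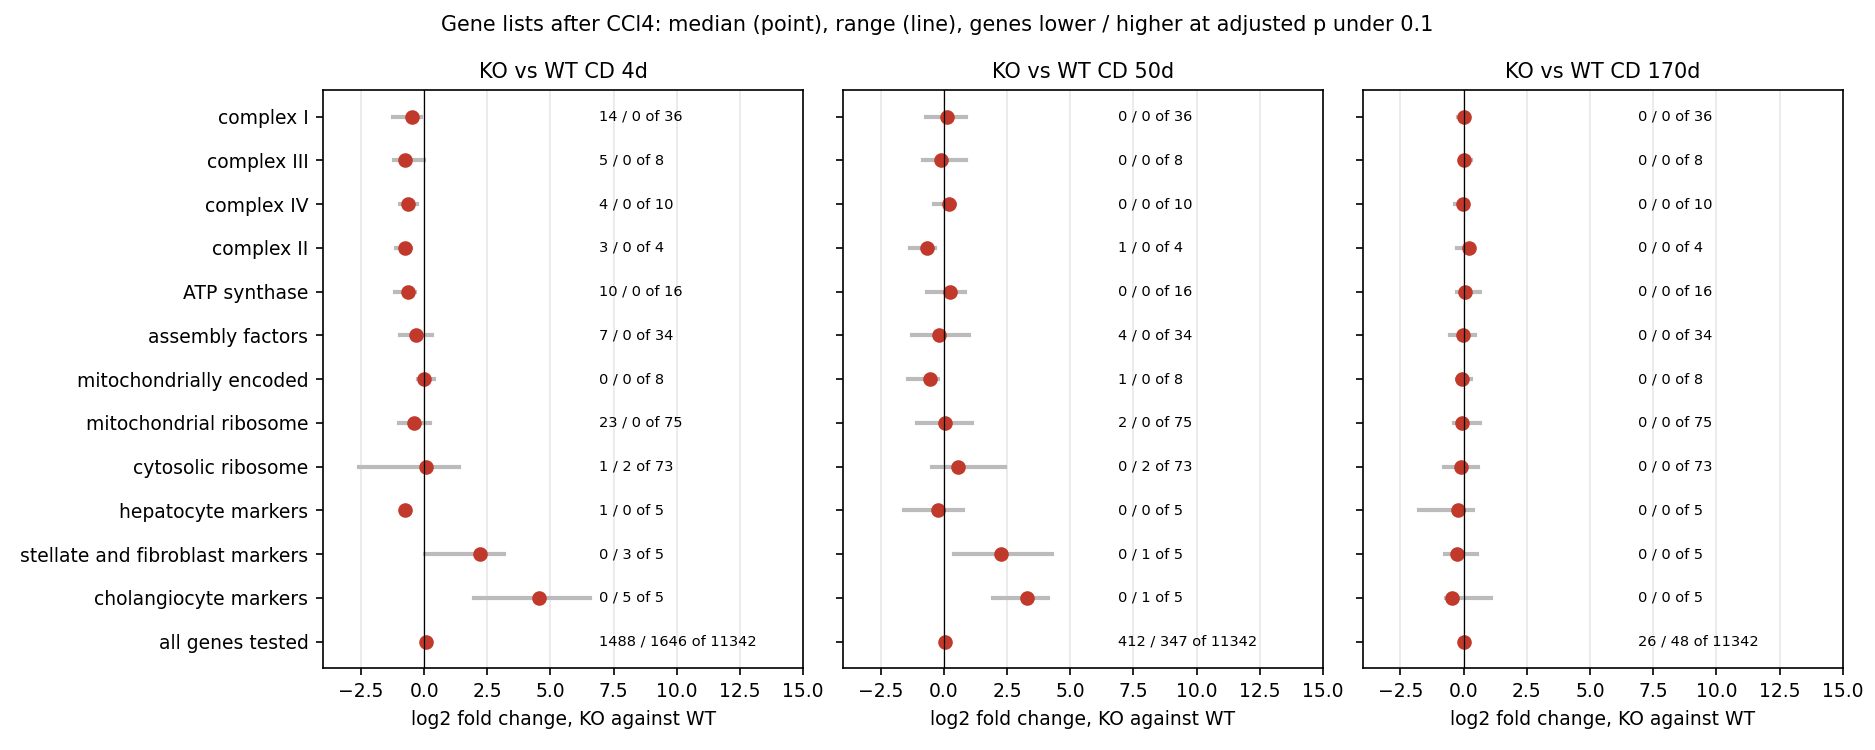
Log2 fold change, R&Zdel against R&Zflox (horizontal axis), of gene lists (rows) at 3 times after CCl4, with points for the median, lines for the range (none is drawn for all genes) and text for the genes that fell and rose at an adjusted p under 0.1. At CD 4d the nuclear genes of the chain lie left of 0, the mitochondrially encoded genes at -0.01 and the cholangiocyte markers at 4.56, and at CD 170d no gene of the 12 named lists was called.

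Promoters of 45 of the 54 genes were found in RefSeq's table (build GRCm38.p6, 250 bases before to 50 after the gene start). Each was searched on both strands for sites of factors known to act on respiratory genes, namely NRF1 (GCGCATG), ETS factors such as GABP (CCGGAAG), YY1 (AAGATGG) and the ERR nuclear receptors (AAGGTCA). The NRF1 letters were in 9 of the 45 (20%, against 4.04% of 27025 promoters), the ETS letters in 9 (20% against 9.12%), the YY1 letters in 8 (17.8% against 6.48%) and the ERR letters in 3 (6.67% against 4.66%). At least 1 of the 4 was in 25 of the 45 (55.6% against 22%). Of the 17 genes with a promoter that fell at CD 4d, 4 held NRF1, 3 ETS, 2 YY1 and 0 ERR letters, and of the 28 others 5, 6, 6 and 3. The 130 bases just upstream of the start are shown for 4 genes that fell at CD 4d, 5′ to 3′ on the minus strand, with matched letters in capitals. Ndufa6, Uqcrfs1 and Uqcrh are those past the 1 log2 unit threshold, at CD 4d or in the test against CD 170d, whose window lies outside the annotated exons, and Cox8a is the complex IV gene of lowest p with such a window. The windows lie at chr15:82354292-82354421 (Ndufa6), chr13:30545317-30545446 (Uqcrfs1), chr4:116075071-116075200 (Uqcrh) and chr19:7217617-7217746 (Cox8a).
Ndufa6: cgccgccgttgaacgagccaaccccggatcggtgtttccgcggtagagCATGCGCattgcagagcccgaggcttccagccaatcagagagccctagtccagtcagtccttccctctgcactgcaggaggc
Uqcrfs1: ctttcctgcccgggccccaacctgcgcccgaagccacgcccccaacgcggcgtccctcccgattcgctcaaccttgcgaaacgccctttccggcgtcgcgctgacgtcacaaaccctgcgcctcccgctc
Uqcrh: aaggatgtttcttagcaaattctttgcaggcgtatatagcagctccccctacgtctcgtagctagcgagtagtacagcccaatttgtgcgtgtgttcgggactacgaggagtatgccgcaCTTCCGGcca
Cox8a: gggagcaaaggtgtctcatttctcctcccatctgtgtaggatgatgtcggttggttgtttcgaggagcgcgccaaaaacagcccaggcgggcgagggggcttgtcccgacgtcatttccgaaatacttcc
The Ndufa6 match is the reverse complement of the NRF1 letters, starting 82 bases upstream, and the Uqcrh match that of the ETS letters, starting 10 bases upstream. The windows of Uqcrfs1 and Cox8a hold none of the searched letters, while the full promoter of Cox8a has 2 ETS matches that reach outside the window. A match is a description of the letters and not a site of binding.

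By 170 days after CCl4, no member differed between the genotypes at an adjusted p under 0.1, where 0.652% of all genes were called. Of the 54 log2 fold changes 27 were above and 27 below 0, from -0.35 to 0.28, with a median of 0.01. No member had an unadjusted p under 0.05 in either direction, against 4.52% of genes higher and 4.71% lower. The summed log2 CPM was 14.12 and 14.18 in R&Zdel and 14.09 and 14.19 in R&Zflox, so the genotypes overlapped under TMM. With total counts as the scaling it was 14.07 and 14.14 against 13.84 and 13.93, with both R&Zdel libraries above both R&Zflox libraries. Ndufs1 measured 99.4 and 85.5 CPM in R&Zdel and 72.8 and 105 CPM in R&Zflox. Uqcrfs1 measured 565 and 486 CPM against 498 and 619.6 CPM. For both genes the genotypes overlapped, at log2 fold changes of 0.05 (SE 0.20) and -0.09 (SE 0.19).

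The change in genotype effect between CD 4d and CD 170d was tested as an interaction. All 54 differences were below 0 (median -0.57, against 0.06 for all genes), and 3 passed an adjusted p under 0.1, against 3.7% of all genes in that direction and 3.84% in the other. Among them were Uqcrfs1 at -1.10 (SE 0.28, adjusted p = 0.0665) and Ndufa6, an accessory subunit of the matrix arm, at -1.14 (SE 0.34, adjusted p = 0.09997). The lowest value, Ndufb9 at -1.17 (SE 0.35), had an adjusted p of 0.102. Ndufa6 itself measured 249 and 198 CPM in R&Zdel at CD 4d against 483 and 392.2 CPM in R&Zflox, and 428 and 457 CPM against 343 and 409.96 CPM at CD 170d. With total counts as the scaling none of the 54 passed and the median was -0.29. Leaving out single libraries gave 0 to 10 calls, 10 without R&Zflox replicate 2 of CD 170d and 0 without each of the other 7.

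**Figure D5:**
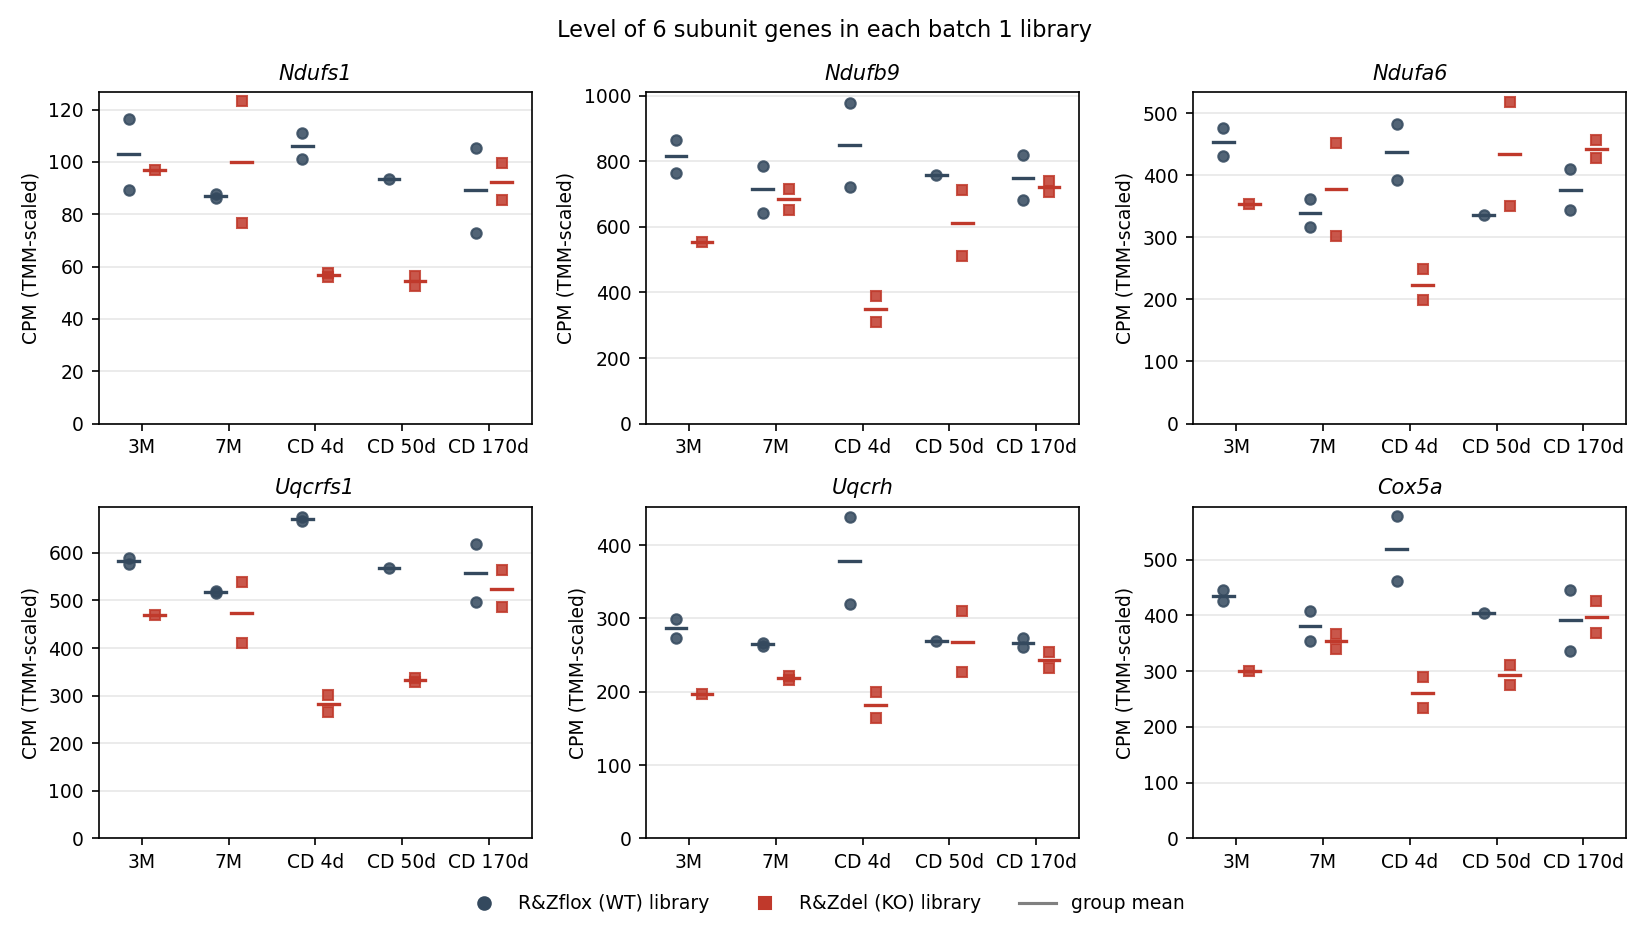
TMM-scaled CPM (vertical axes) of Ndufs1, Ndufb9, Ndufa6, Uqcrfs1, Uqcrh and Cox5a in each batch 1 library, by time and treatment (horizontal axes), with circles for R&Zflox libraries, squares for R&Zdel libraries and lines for group means. At CD 4d both R&Zdel points lie below both R&Zflox points in all 6 genes, while at CD 170d the genotypes overlap in all but Ndufa6, whose R&Zdel points lie above, and Uqcrh, whose R&Zdel points lie below.

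Between these times, 50 days after CCl4, there was 1 R&Zflox library, which was assumed to vary like the other groups. No member was called, against 6.69% of all genes, and 31 fold changes were above and 23 below 0, with a median of 0.13. By the unadjusted p under 0.05, 2 were higher and 3 lower, against 11.5% and 11.2% of genes. Values within a complex pointed both ways. Uqcrc2 measured 101 and 106 CPM in R&Zdel against 193 CPM, at -0.82 (SE 0.24, adjusted p = 0.106), and Uqcrfs1 337 and 329 CPM against 568.1 CPM, at -0.69 (SE 0.23, adjusted p = 0.132). Ndufs1 stood at 52.6 and 56.5 CPM against 93.3 CPM. On the other side Ndufv3, an accessory subunit, measured 459 and 242 CPM against 199 CPM, at 0.89 (SE 0.38, adjusted p = 0.199), and Uqcrq, a small subunit of complex III, 1575 and 936 CPM against 721 CPM. The 2 R&Zdel libraries stood apart, at a summed log2 CPM of 14.40 and 13.89, on either side of the R&Zflox library at 14.05 under TMM, while by total counts both, at 14.39 and 14.26, lay above it at 13.94. Sdhd, the membrane anchor of complex II, stood at -1.35 on the log2 scale (SE 0.22, adjusted p = 0.0510). The mitochondrially encoded mt-Co1, a catalytic subunit of complex IV, stood at -1.42 (SE 0.31, adjusted p = 0.0637). Both calls rest on 1 R&Zflox library whose own spread was not measured.

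Chronic damage, as labelled, was compared with no damage within a genotype, in batch 1. By the study's timeline CD 4d lies fewer months after recombination than 3M, so damage and time cannot be told apart between those 2 groups. In R&Zflox livers at CD 4d against undamaged R&Zflox at 3M, no member was called by edgeR and 1 by DESeq2, against 3.7% of all genes by edgeR, with 28 above and 26 below 0 and a median of 0.03. Of the members 2 were lower and none higher at an unadjusted p under 0.05, against 7.61% and 8.23% of genes. Uqcrb had the lowest p, with 75.9 and 67.8 CPM at CD 4d and 114 and 109 CPM at 3M, at -0.64 (SE 0.22, adjusted p = 0.175). Mitochondrially encoded transcripts were below 0 in 8 of 8 there (median -0.82), and mt-Cytb, cytochrome b of complex III, fell by 1.21 (SE 0.29, adjusted p = 0.0616) and mt-Co1 by 1.37 (SE 0.37, adjusted p = 0.0918). In the fit of CD 170d against 7M, the sex term was set by the male and the female R&Zflox library at 7M. The R&Zflox contrast, and the difference between the genotypes' responses, therefore rest on the male, replicate 1, as the only undamaged control. The repeated tamoxifen of the CCl4 model, if also given to the 170-day mutants, cannot be told apart from damage in R&Zdel. At 170 days against undamaged 7M livers the members' median was 0.06 in R&Zflox (43 above, 11 below 0) and 0.13 in R&Zdel (44 above, 10 below). By edgeR no member and no gene of all 12583 was called, and by DESeq2 no member, in either, and at an unadjusted p under 0.05 the members had 0 higher in R&Zflox and 1 higher in R&Zdel, against 3.06% and 3.74% of genes, and none lower (2.46% and 3.06%). The difference between the genotypes' responses had a median of 0.04 and no call among members or all genes by edgeR, nor among members by DESeq2, with 0 members at an unadjusted p under 0.05 (1.3% of genes higher and 1.57% lower).

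In undamaged mice at 1M, 52 of 54 members had a fold change below 0, with a median of -0.30 and a range from -0.73 to 0.07, but none passed an adjusted p under 0.1, which 0.498% of all genes did. At an unadjusted p under 0.05, 9 members were lower and none higher, against 3.72% and 4.03% of all genes, whose median was 0.01. The summed log2 CPM was 13.58, 13.52, 13.77 and 13.70 in R&Zdel and 13.80, 13.98, 13.95 and 13.96 in R&Zflox, with the highest R&Zdel library just under the lowest R&Zflox library under TMM. By total counts the genotypes overlapped, at 13.70 to 13.91 in R&Zdel and 13.76 to 13.97 in R&Zflox. In 14 members every R&Zdel library was below every R&Zflox library, against 2.25% of genes. Ndufa1, an accessory subunit of the membrane arm, had the lowest p, with 87.9, 87.9, 106 and 84.9 CPM in R&Zdel and 135, 129, 189 and 157 CPM in R&Zflox, at -0.73 (SE 0.25, adjusted p = 0.303). Cox7b, a small subunit of complex IV, measured 126, 131, 149 and 122 CPM against 160, 161, 310.0 and 204 CPM, at -0.64 (SE 0.22, adjusted p = 0.313). Neither gene overlapped between genotypes. In complex III Uqcrh measured 191, 134, 165 and 181 CPM against 207, 238, 241 and 260.3 CPM, at -0.51 (SE 0.27, adjusted p = 0.693).

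With total counts as the scaling the 1M median of the members was -0.12 with 44 below 0, and that of all genes 0.19. The difference of -0.31, beside -0.32 under TMM, is again one that a change of scaling can hardly alter. In males alone the members' median was -0.19, with 46 below 0. The hepatocyte markers summed to 54061 to 76394 CPM in R&Zdel and 108906 to 127550 CPM in R&Zflox at 1M, with 1 of 5 that fell. The stellate and fibroblast markers summed to 121 to 198 CPM in R&Zdel and 215 to 272 CPM in R&Zflox, with none of 5 called, and the sums of the other marker lists overlapped. The 20 most abundant genes of a library took 24.1% to 27.9% of its counts in R&Zdel and 29.8% to 32.6% in R&Zflox. The part of these differences in the lower subunit values was not tested.

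At 3M, 45 of 54 members were below 0 (median -0.23, all genes -0.09), none was called against 0.226% of genes, and 5 were lower and none higher at an unadjusted p under 0.05, against 2.34% and 4.11% of genes. The R&Zdel group has 1 library in each batch, and that of batch 1 is from a female while both R&Zflox libraries of that batch are from males, so within batch 1 sex and genotype cannot be told apart. Within batch 1 the median was -0.36 with 46 below 0, and within batch 2 it was -0.09 with 31 below 0. In males alone it was -0.0998 with 33 below 0. Without both libraries of conflicting titles it was -0.096 with 33 below 0 at 3M, where that of all genes was -0.21, and 0.15 at 7M. Cox7b measured 173 CPM in R&Zdel against 316 and 358 CPM in batch 1, and 195 CPM against 388, 364 and 284 CPM in batch 2, so R&Zdel was lower in both. Its log2 fold change was -0.99 (SE 0.28, adjusted p = 0.266), or -0.69 (SE 0.34) in males alone. Uqcrb measured 80.3 CPM against 114 and 109 CPM in batch 1 and 78.0 CPM against 167, 156 and 162 CPM in batch 2, at -0.93 (SE 0.30, adjusted p = 0.408). Ndufa1 stood at -0.91 (adjusted p = 0.479), and it and Cox7b were also the members of lowest p at 1M, in other mice.

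At 7M the direction was mixed, with 35 members above and 19 below 0, a median of 0.12 and none called against 0.576% of genes. At an unadjusted p under 0.05, 7 were higher and 1 lower, against 5.6% and 3.3% of genes. Within batch 1 the median was -0.04 and within batch 2 it was 0.22. The batch 1 fit holds a sex term set by the male and the female R&Zflox library at 7M. Its 7M fold changes, here and for the genes below, therefore rest on the male, replicate 1, as the only control. In batch 2 the 3 R&Zdel libraries stood far apart, at a summed log2 CPM of 14.12, 13.37 and 14.59, around the R&Zflox libraries at 13.73, 13.83 and 13.69. Replicate 5, the highest, also had 37.2% of its counts in its 20 most abundant genes and replicate 4, the lowest, 24.6%, against 29.2% to 30.7% in R&Zflox. Uqcr10, a small subunit of complex III, measured 387, 136 and 657 CPM in these R&Zdel libraries against 189, 187 and 161 CPM. In batch 1 it measured 107 and 132 CPM against 112 and 89.7 CPM. Its log2 fold change was 0.76 (SE 0.28, adjusted p = 0.409). By batch it was 0.08, against R&Zflox replicate 1 (112 CPM) alone, and 1.15. Ndufv3 behaved alike, at 337, 114 and 605 CPM against 183, 163 and 128 CPM in batch 2, with 0.03 in batch 1 and 1.17 in batch 2. In batch 2 every R&Zdel library was below every R&Zflox library in 3 members, Uqcrfs1, Cox5a and Uqcrb, against 5.6% of genes, and in no member above, against 4.74%. Uqcrfs1 measured 286, 395 and 278 CPM in R&Zdel and 509.8, 525 and 591 CPM in R&Zflox there, and 539 and 409.9 CPM around 520 and 516 CPM in batch 1. It stood at -0.53 (SE 0.21, adjusted p = 0.427). Without R&Zdel replicate 4, 7 members were called higher against 1.71% of genes, and without R&Zdel replicate 5 the median was -0.02 with 33 below 0. The difference between the 7M and 1M effects had a median of 0.47 with 47 of 54 above 0, with no call among members or genes by edgeR and none among members by DESeq2. The 1M mice were all of the virus line and the 7M mice all of the tamoxifen line, so time and deletion agent cannot be told apart in it. At an unadjusted p under 0.05, 9 members had a higher and none a lower effect at 7M, against 2.82% and 3.04% of genes.

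After PHx no member passed the test between genotypes. At 7 days 37 of 54 members were below 0, with a median of -0.17, and at 21 days 31, with a median of -0.07. None was called at an adjusted p under 0.1 (0.352% and 0.423% of genes), nor at an unadjusted p under 0.05 with a change above 1 log2 unit (3.99% and 6.56% of genes). At an unadjusted p under 0.05 alone, 2 members were higher and 3 lower at 7 days (2.84% and 3.1% of genes), and 0 and 3 at 21 days (4.05% and 4.63% of genes). The summed log2 CPM at 7 days was 13.74, 14.03 and 13.63 in R&Zdel and 13.97, 13.70 and 14.13 in R&Zflox, which overlapped. At 21 days it was 13.94, 14.23 and 13.62 against 13.98, 14.03 and 14.03, also overlapping. Uqcrc1 at 7 days measured 738, 881 and 646 CPM in R&Zdel and 524, 538 and 629.8 CPM in R&Zflox, above in all 3, at 0.44 (SE 0.18, adjusted p = 0.805). Cox7c, a small membrane subunit, measured 6.32, 7.83 and 6.40 CPM against 19.1, 7.37 and 16.7 CPM at 7 days, with overlap, and had the lowest fold change there at -1.05 (SE 0.66, adjusted p = 0.910). At 21 days Cox5a measured 153, 165 and 158 CPM against 214, 231 and 196 CPM, below in all 3, at -0.42 (SE 0.20, adjusted p = 0.567), and Ndufv2, a core subunit of the NADH-oxidising module, 164, 139 and 213 CPM against 289, 226 and 195 CPM.

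Recovery from PHx was compared with undamaged 1M livers of the same genotype, within batch 2. In R&Zflox the members' median was -0.09 at 7 days and -0.07 at 21 days. In R&Zdel it was 0.07 and 0.22, with 40 and 46 of 54 above 0. By edgeR no member was called in any of the 4 comparisons (by DESeq2 1 was, higher in R&Zdel at 21 days), where 0.0235% and 0% of genes were in R&Zflox at 7 and 21 days, and 0.0157% and 0% in R&Zdel. At an unadjusted p under 0.05 the counts of members were 1 and 0 in R&Zflox (lower) and 2 and 6 in R&Zdel (higher), against 2.16%, 3.29%, 2.77% and 2.27% of genes in the same direction. In the opposite direction there was no member, against 3.62%, 3.63%, 2.22% and 2.63% of genes. Ndufs6, a zinc-binding accessory subunit of complex I, had the lowest p, with 445, 504.5 and 257 CPM in R&Zdel at 21 days against 237, 223, 267 and 265 CPM at 1M, at 0.63 (SE 0.20, adjusted p = 0.959). The remaining library lay inside the 1M range. The comparisons share the 1M libraries, as does the difference between the genotype effects at 21 days and 1M, which had a median of 0.31 and no member called by edgeR or DESeq2, with 0 members at an unadjusted p under 0.05 (2.47% of genes higher and 3.27% lower).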

How the data were processed

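Whole-liver RNA was sequenced by the Smart-Seq2 protocol as single-end 50-base reads. Per the labels, the authors trimmed reads with Trim Galore, aligned them to mm10 with STAR 2.5.0a and counted reads per gene with featureCounts (1.5.0-p1 or 1.5.0-p3). The study's methods name Sickle in place of Trim Galore, another featureCounts version and a UCSC mm10 annotation. The batch 1 file headers name an NCBI RefSeq mm10 annotation and counting without strand. The deposited values are raw counts, and the batch 2 table has no such header. Of 55 samples, 53 had counts and 48 could be placed in 1 of 16 groups by their labels; 5 whose labels conflict stayed outside every comparison. Sex and batch came from the study's sample list.

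Symbols shared by both tables were kept. Genes above 1 CPM in at least 3 libraries (6 for CD) were tested with edgeR 4.0.16 (R 4.3.3, limma 3.58.1), TMM scaling, a two-sided quasi-likelihood F-test and Benjamini-Hochberg adjustment over all tested genes. Models held group, sex and batch for the 25 undamaged libraries (12851 genes), group for the 11 CD libraries (11342), group and sex for 20 PHx and 1M libraries (12776), and group and sex for 18 batch 1 libraries (12583). All 54 members passed the filter in each. The SE of a log2 fold change was its size over the square root of F. Calls used an adjusted p under 0.1, and also a log2 change above 1 where stated. Levels are TMM-scaled CPM; group sums add CPM over genes. The 3M group was corrected for batch; no value was imputed.

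The members and gene lists were chosen with earlier results of these data known. Members named singly are those past the study's threshold, the 2 with the lowest p per complex in each genotype comparison, the highest and lowest per complex and batch, 10 defining subunits, and the member per complex with the largest interaction; others were named after their values were seen. Of the members, 1 is in every fit and count but is not reported here singly. Alternatives were DESeq2 1.42.0, other scalings, filters, a replicate block, subsets and leaving out libraries. The scripts were tested on simulated data. A read was worth 0.022 to 0.095 CPM, and the number of libraries limits precision.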

Additional observations from a re-analysis of the deposited data

Results flagged for a closer look

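The gap between an extreme library and its nearest neighbour was divided by the range of the group, a check that flags about 1 in 20 by chance. Only the 1M groups had the 4 or more libraries of a batch that it needs. It was run 20 times, on summed levels and on the members of lowest p at 1M. These checks share libraries and genes, so they are not independent. Among the R&Zflox libraries at 1M, the summed log2 CPM of all members gave 0.8687, since replicate 1 at 13.80 lay below 13.95 to 13.98, and Uqcrfs1 gave 0.8461, since replicate 4 was at 513 CPM and the others at 397 to 413 CPM. Among the R&Zdel libraries at 1M, replicate 3 was the highest for Cox6c (0.8482, 251 CPM against 198 to 206 CPM) and for Ndufa1 (0.84, 106 CPM against 84.9 to 87.9 CPM). The critical value for 4 libraries is 0.829.

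The genotype effect differed between CD 4d and CD 170d by the interaction test in Ndufa6 (-1.143) and Uqcrfs1 (-1.101), on the log2 scale.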

How the results depend on the processing

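Of 830 comparisons of the main counts and levels with an alternative, 787 kept within 1.5 times the count or within the replicate spread. Many of these set a count of 0 beside 0, since the main fits called members only at CD 4d and in its interaction. The share is therefore no measure of robustness. Total-count scaling in edgeR (chosen after seeing the data) left 5 members lower at CD 4d and 0 in the CD 4d to 170d interaction. That interaction gave 13 with DESeq2, 6 with the likelihood ratio test, 11 without a filter and 6 with the compared groups alone. At CD 50d, 1 member was lower with DESeq2 size factors, 3 with DESeq2, 1 without mitochondrial genes in library sizes, 1 with the likelihood ratio test and 2 without a filter. DESeq2 also called 1 member lower at 3M, 1 lower for R&Zflox CD 4d against 3M and 1 higher for R&Zdel PHx 21d against 1M. Summed levels by total counts differed by -0.18 at CD 4d (I -0.13, III -0.32, IV -0.19), 0.39 at CD 50d (I 0.37, III 0.36, IV 0.43) and 0.22 at CD 170d (I 0.21, III 0.27, IV 0.19). With the median log2 CPM the difference was -0.46 at CD 4d over all complexes, and -0.22 and -0.093 at CD 50d for III and IV. Leaving out 1 library gave 2 to 20 lower at CD 4d, 0 to 7 higher at 7M, 0 to 1 higher at CD 50d, 0 to 1 higher for R&Zdel PHx 21d against 1M, and 0 to 10 lower in the interaction. Among named members Cox4i1 reversed at 7M in batch 1 alone (-0.074, resting on 1 R&Zflox library). Cox7a2 reversed at PHx 21d when single libraries were left out (-0.079 to 0.46). The cause was not tested.

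The deviations of same-numbered libraries correlated at 0.35 at CD 4d, -0.36 at CD 170d and -0.33 to 0.41 at 7M, and the labels tie no numbers together, so the samples were not treated as paired. A fit with the replicate block called 24 members lower at CD 4d, 22 of them among the 23, and 2 in the interaction. CD 50d could not be fitted without its R&Zflox library.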

Other observations

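The 5 batch 1 libraries whose labels conflict had summed log2 CPM of the 54 genes, by total counts, of 13.65, 14.14, 13.94, 13.95 and 13.85, where the grouped batch 1 libraries ranged from 13.75 to 14.39. Isoforms typical of other tissues were low, and Cox6b2, the isoform known from testis, rose at CD 4d by 1.87 on the log2 scale (SE 0.46, adjusted p = 0.0247), the only one of 3 tested to pass.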
